A study of Mus musculus with 8 samples.

Results

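The 31 genes described here encode the enzymes that build cholesterol, the proteins that sense it, and those that take it up, move it between membranes, store it, degrade it and export it. They were taken by symbol from a table of 34094 genes measured in the mouse hippocampus, and all 31 were found and passed the filter on low values. The sample titles read hippocampus tissue, and the labels name its CA1 field. The samples were 4 wild-type (WT) libraries and 4 libraries labelled cko type (Brpf1 knockdown), called cKO below, all from C57BL/6 mice of 2 months. Brpf1, a gene linked to intellectual disability, encodes a scaffold of histone acetyltransferase complexes. The series compares hippocampus with lowered Brpf1 with WT. The Cre line or vector, the deleted exons and the sex of the mice are, in the sources used here, not given. A protocol speaks of 3 pairs of mice while 4 libraries stand in each group. Which library came from which mouse is not given, so every p below measures the spread between libraries, which may be partly technical.

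The adult brain makes nearly all of its own cholesterol, because lipoproteins of the blood do not cross the blood-brain barrier. Acetyl-CoA is joined into mevalonate, then into isoprenoids and squalene, and squalene is closed and trimmed into cholesterol. When sterol in the endoplasmic reticulum runs low, SCAP escorts the transcription factors SREBP1 and SREBP2 out of it, and these raise the genes of the pathway. INSIG proteins hold the complex back when sterol is plentiful. Astrocytes and myelinating oligodendrocytes are strong producers, astrocytes export cholesterol on lipoproteins, and neurons remove their surplus with the hydroxylase encoded by Cyp46a1.

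Levels are given as normalized reads (reads over the size factor of their library), and log2 fold changes are cKO minus WT on the log2(normalized reads + 1) scale. The WT libraries held 42346644 to 49897832 reads on genes and the cKO libraries 40330226 to 46559795 (two-sided exact permutation p = 0.286). Brpf1 itself had 1358 to 1473 normalized reads in WT libraries and 848 to 1032 in cKO, with no overlap. Its means were 1415 ± 55.1 and 945 ± 87.3 (SD, n = 4) (two-sided exact permutation p = 0.0286, the smallest that 4 against 4 can give). The cKO mean was thus 66.8% of the WT mean, a reduction in tissue RNA and not an absence. The log2 fold change of Brpf1 was −0.59, with a limma adjusted p of 0.132. At an adjusted p under 0.05, limma thus did not call Brpf1, whose FDR in the authors' deposited table is 1.47e-07. Markers of CA1 pyramidal neurons were present in all libraries, with a summed level of 14101 to 21835 normalized reads in WT libraries and 15567 to 21619 in cKO over 6 genes. Markers of dentate granule neurons, which lie outside CA1, were present too, at 16071 to 19799 in WT and 14287 to 18062 in cKO.

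None of the 31 cholesterol genes passed the test of cKO against WT across all genes. With limma and Benjamini-Hochberg adjustment over 26135 genes, 0 of the 31 had an adjusted p under 0.05, where 0.0191% of all genes tested did, and their adjusted p ran from 0.499 to 0.987. At an unadjusted limma p under 0.05 there were 2 of the 31, Acat2 (higher in cKO) and Msmo1 (lower), or 6.45%, close to the 8.67% of all genes tested. The groups did not overlap at 1 of the 31, Acat2, which is 3.23% against 4.92% of all genes tested. The log2 fold change was positive for 17 members and negative for 14, with a median of 0.016, beside −0.018 over all genes tested. In the authors' deposited table, 0 of the 31 have an FDR under 0.05, where 0.657% of its 34094 genes do. That share also covers genes that did not pass the filter on low values. The lowest FDR among the members is 0.197, that of Msmo1.

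The count of 2 members at an unadjusted limma p under 0.05 depends on single libraries. It was 1 (3.23%) without WT replicate 4 or without cKO replicate 3, in both cases Acat2 alone, where 6.73% and 6.33% of all genes tested had such a p. Without cKO replicate 2 it was 4 (12.9%, against 10.3% of all genes), and without WT replicate 3 it was 6 (19.4%, against 10.6%). No member had an adjusted p under 0.05 in any of these fits.

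The precision of the fit limits how large a difference could have gone unseen. Standard errors of the log2 fold change ran from 0.070 for Insig2 to 0.21 for Fdft1. The 95% interval of the fold change lay within 1.5-fold in either direction for 26 of the 31 genes and within 2-fold for all 31. The 5 members whose interval reached beyond 1.5-fold were Acat2, Fdft1, Msmo1, Ebp and Srebf2. Over all 26135 genes tested, it lay within 1.5-fold for 10881 and within 2-fold for 14942. The median SE was 0.12 for the members and 0.24 over all genes tested, so the members were measured more precisely than the genes they are set beside. Group means in cKO lay between 79.0% of the WT mean, for Msmo1, and 128% of it, for Acat2.

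**Figure D1:**
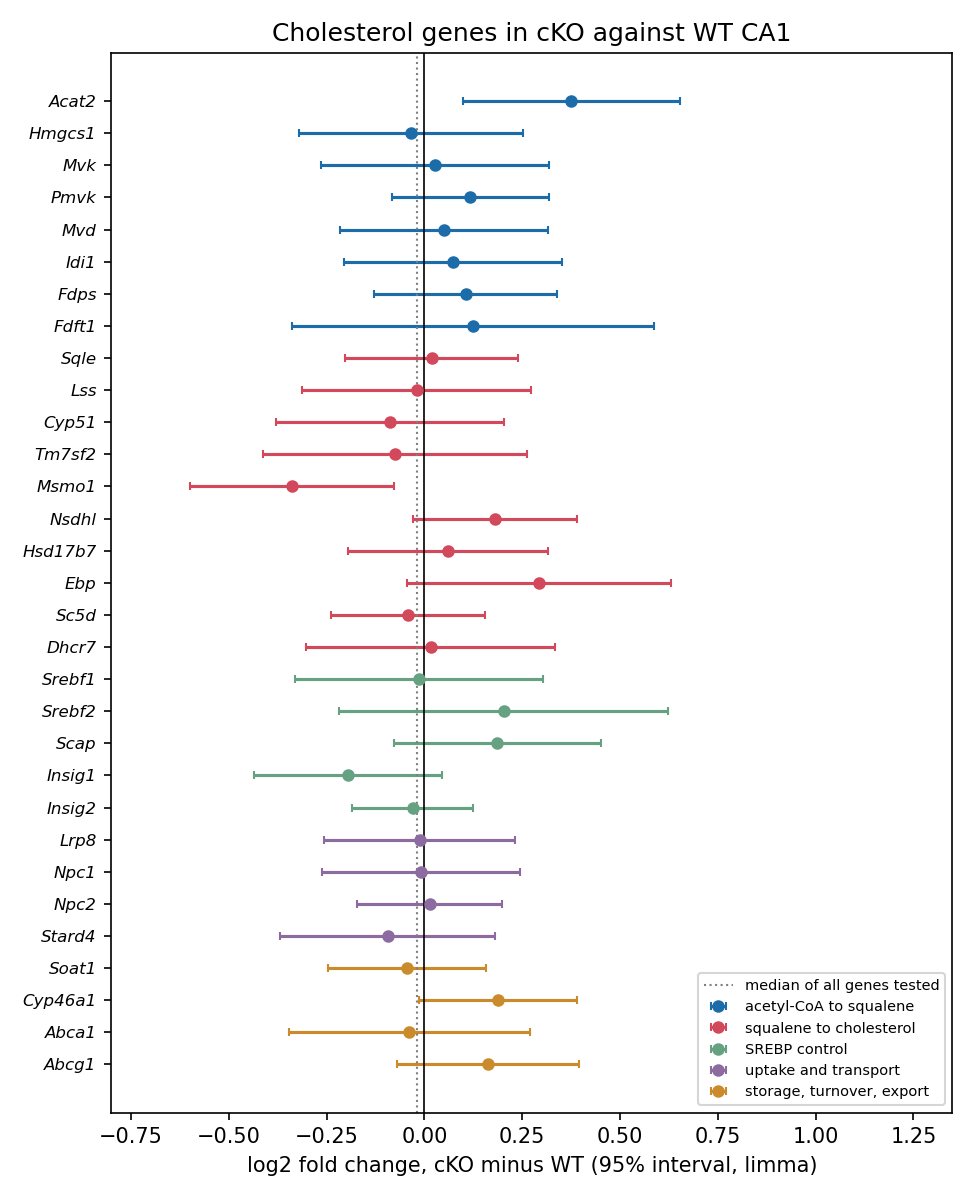
Log2 fold change of each of the 31 genes, cKO minus WT (x axis), with its 95% interval from limma (bars), coloured by the gene's role. Intervals leave out 0 for Acat2 and Msmo1, and the median of all genes tested (dotted line) is −0.018.

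Promoters of these genes share short sequence elements. SREBPs act on promoters together with the factor NF-Y, which binds the letters CCAAT, and with SP1, which binds GC boxes. RefSeq start sites (GRCm38.p6) were matched by symbol for 25 of the 31 genes, and the 250 bases before each start were searched on both strands. CCAAT was found in 21 of the 25 (84%), where 39.2% of 14117 tested genes with a matched start hold it. The GC box GGGCGG was found in 22 of the 25 (88%), against 56.2%. As exact letters, the sterol element TCACNCCAC was found in Hmgcs1 alone, 1 of 25 (4%), against 1.25% of tested genes. Sterol elements that differ from these letters were not searched for. Fdps, Fdft1, Sqle, Npc1, Stard4 and Abcg1 had no matched start and were not searched for any motif. Matches of different motifs did not overlap in any of these windows, and a match is a description of letters, not a measured binding site.

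The 4 windows shown are those of Hmgcs1, which holds the sterol element, of Acat2 and Msmo1, the genes with the lowest p, and of Cyp46a1, which acts in cholesterol removal. Capitals mark TCACNCCAC, CCAAT and GGGCGG or their reverse complements.
Hmgcs1 (chr13:119690101-119690350, plus strand): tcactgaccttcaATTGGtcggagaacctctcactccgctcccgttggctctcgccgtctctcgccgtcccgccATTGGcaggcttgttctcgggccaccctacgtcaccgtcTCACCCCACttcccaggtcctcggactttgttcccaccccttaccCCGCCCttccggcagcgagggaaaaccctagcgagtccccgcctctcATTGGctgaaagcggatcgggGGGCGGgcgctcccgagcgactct
Acat2 (chr17:12960726-12960975, minus strand): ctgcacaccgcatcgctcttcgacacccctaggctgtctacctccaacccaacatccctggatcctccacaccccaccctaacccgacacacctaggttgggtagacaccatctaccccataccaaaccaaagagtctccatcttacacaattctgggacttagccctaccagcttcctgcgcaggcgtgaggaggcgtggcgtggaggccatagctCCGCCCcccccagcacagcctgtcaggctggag
Msmo1 (chr8:64733579-64733828, minus strand): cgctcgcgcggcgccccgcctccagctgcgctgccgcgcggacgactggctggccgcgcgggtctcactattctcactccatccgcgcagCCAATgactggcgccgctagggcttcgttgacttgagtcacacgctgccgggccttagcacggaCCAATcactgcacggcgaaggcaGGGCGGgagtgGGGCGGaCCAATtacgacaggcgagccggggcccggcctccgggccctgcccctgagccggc
Cyp46a1 (chr12:108334066-108334315, plus strand): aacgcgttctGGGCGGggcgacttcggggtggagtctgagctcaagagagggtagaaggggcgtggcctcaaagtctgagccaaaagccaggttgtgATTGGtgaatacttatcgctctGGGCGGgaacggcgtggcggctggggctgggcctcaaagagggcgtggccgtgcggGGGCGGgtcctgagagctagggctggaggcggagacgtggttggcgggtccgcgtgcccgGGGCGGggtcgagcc
The Acat2 window holds a GC box and no CCAAT, while the Msmo1 window holds both. The 21 genes with CCAAT had a median log2 fold change of 0.014, with 11 positive, and the 4 matched genes without it (Acat2, Scap, Lrp8 and Abca1) had a median of 0.087, with 2 positive.

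Among the 8 enzymes that lead from acetyl-CoA to squalene, Acat2 stood apart from the rest. Acat2 encodes the cytosolic thiolase that joins acetyl-CoA units at the entry of the pathway, and is not the sterol acyltransferase that shares the abbreviation. It had 1127, 1407, 1417 and 948 normalized reads in WT replicates 1 to 4 and 1560, 1540, 1580 and 1589 in cKO replicates 1 to 4. No cKO library was as low as the highest WT library, and the cKO libraries lay much closer together, at 1567 ± 21.6 (SD, n = 4) against 1225 ± 228 in WT. The log2 fold change was 0.38 (SE 0.13), a fold of 1.28 in group means, with a 95% interval of the fold change from 1.07 to 1.57 and a limma adjusted p of 0.499. Acat3, the neighbouring paralog on the same strand, had 397 ± 74.5 in WT and 379 ± 97.8 in cKO, and reads of the pair may be split between them. Summed over both genes, the WT libraries had 1441 to 1763 normalized reads and the cKO libraries 1807 to 2063, again without overlap.

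The other 7 enzymes of this stretch had log2 fold changes from −0.033 to 0.12. Pmvk, which adds the second phosphate to mevalonate, had 995, 930, 858 and 884 normalized reads in WT libraries and 897, 1027, 1006 and 1049 in cKO. Its groups overlapped through cKO replicate 1 (log2 fold change 0.12, SE 0.090, limma adjusted p = 0.721). Hmgcs1, which makes the precursor that is reduced to mevalonate, was the most highly counted member, at 10934 ± 1377 in WT and 10735 ± 1759 in the cKO group (mean ± SD, n = 4). The mevalonate kinase gene Mvk had 562 ± 52.1 and 576 ± 91.3, and the decarboxylase gene Mvd had 526 ± 35.3 and 547 ± 68.5. Groups overlapped for both.

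Idi1, which interconverts the basic isoprene units, had 1983 ± 262 normalized reads in WT libraries and 2091 ± 310 in the cKO group (mean ± SD, n = 4). Fdps, which assembles farnesyl diphosphate, had 1414 ± 200 and 1511 ± 72.8. Fdft1, the squalene synthase that commits isoprenoids to sterols, ranged from 1849 to 3222 in WT and from 2172 to 3330 in cKO. That spread gave it the largest standard error of the 31 genes (log2 fold change 0.12, SE 0.21). In the GENCODE annotation its gene overlaps Ctsb on the opposite strand, a protease gene with 15898 ± 1179 and 17670 ± 1040 normalized reads, and whether counting used the strand is, in the sources used here, not given.

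From squalene to cholesterol, 5 of 10 enzymes had a positive and 5 a negative log2 fold change, with a median of −0.0018. Msmo1, an oxidase of the sterol demethylation complex, had 5216, 4554, 4104 and 5621 normalized reads in WT libraries and 3608, 3970, 3352 and 4475 in cKO. Of the cKO libraries, 3 lay below every WT library, and cKO replicate 4 lay above WT replicate 3. Its log2 fold change was −0.34 (SE 0.12), with group means of 4874 ± 676 and 3851 ± 487 (SD, n = 4), a 95% interval of the fold change from 0.661 to 0.948 and a limma adjusted p of 0.510. The other enzymes of the same complex had values of the opposite sign. Nsdhl had 719 ± 49.5 in WT and 814 ± 54.3 in cKO libraries (a log2 fold change of 0.18, SE 0.095, limma adjusted p = 0.609), and Hsd17b7 had 985 ± 118 and 1027 ± 123 (0.061, SE 0.12).

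Ebp, the isomerase that moves a double bond within the sterol ring, had 312, 367, 454 and 415 normalized reads in WT libraries and 424, 405, 512 and 551 in cKO. Replicates 3 and 4 of cKO exceeded every WT library, and replicates 1 and 2 lay within the WT range. Its log2 fold change was 0.29 (SE 0.15), with a 95% interval of the fold change from 0.969 to 1.55 and a limma adjusted p of 0.607.

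The remaining enzymes of the sterol stretch had group means within 7% of each other. Sqle, the epoxidase that is a control point of the pathway, had 2086 ± 96.1 normalized reads in WT libraries and 2125 ± 270 in the cKO group (mean ± SD, n = 4). Lss, which closes the squalene epoxide into lanosterol, had 1275 ± 244 and 1242 ± 92.0, and the lanosterol demethylase gene Cyp51 had 3212 ± 429 and 3035 ± 473. The reductase genes Tm7sf2 and Dhcr7 had 494 ± 94.7 and 1028 ± 178 in the WT group against 464 ± 43.5 and 1036 ± 150 in cKO. The desaturase gene Sc5d had 3718 ± 259 and 3618 ± 362, with a 95% interval of the fold change from 0.848 to 1.11. Groups overlapped for all 6 genes.

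**Figure D2:**
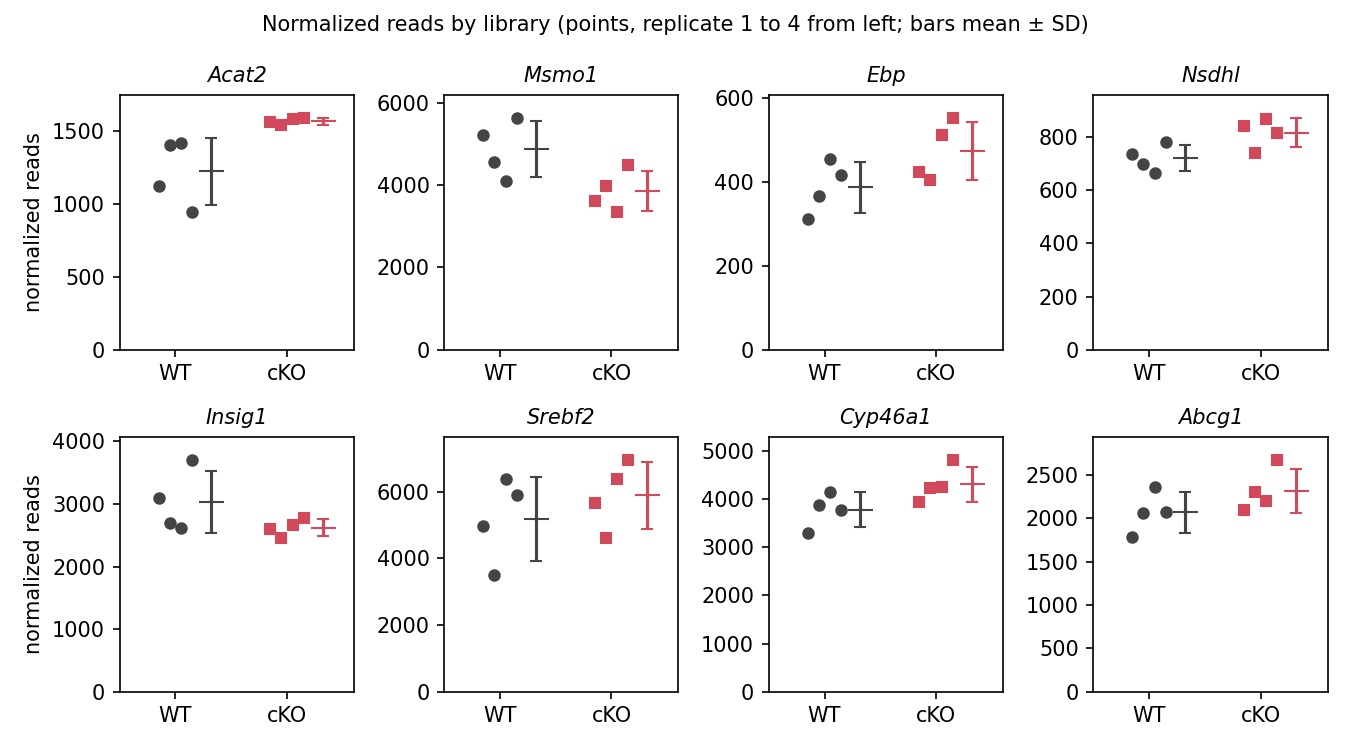
Normalized reads (y axis, from 0) of 8 genes in each library, WT as circles and cKO as squares, with the group mean and SD at the side. The cKO points of Acat2 all lie above the WT points, between 1540 and 1589, while the groups overlap for the other genes.

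The genes of the sterol-sensing machinery overlapped between groups at all 5 members. Insig1, a retention factor that is itself a target of SREBPs, had 3090, 2699, 2615 and 3696 normalized reads in WT libraries and 2604, 2447, 2657 and 2776 in cKO. WT replicates 1 and 4 lay above all cKO libraries, and WT replicates 2 and 3 lay among them. The log2 fold change of Insig1 was −0.19 (SE 0.11, limma adjusted p = 0.626). Insig2, which is not induced in this way, was measured most precisely, at 1992 ± 65.4 in WT and 1952 ± 83.3 in the cKO group (mean ± SD, n = 4), with a 95% interval of the fold change from 0.880 to 1.09.

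Scap, the escort protein gene, had 2415, 2620, 3585 and 2851 normalized reads in WT libraries and 2934, 3075, 3476 and 3462 in cKO. All cKO libraries exceeded 3 of the WT libraries, and WT replicate 3 was the highest of all 8 (log2 fold change 0.19, SE 0.12, limma adjusted p = 0.667). Srebf2, which encodes the factor most tied to cholesterol synthesis, ranged from 3507 to 6376 in WT and from 4597 to 6942 in cKO (0.20, SE 0.19, limma adjusted p = 0.779). Srebf1, more tied to fatty acid synthesis, had 1171 ± 230 and 1145 ± 95.5 (SD, n = 4).

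The 4 uptake and transport genes had overlapping groups and log2 fold changes from −0.093 to 0.014. Stard4, which carries sterol between membranes, had 1289, 1084, 932 and 1333 normalized reads in WT libraries and 1129, 961, 1056 and 1170 in cKO, so that the cKO values lay inside the WT range (log2 fold change −0.093, SE 0.12, limma adjusted p = 0.863). Npc2, which binds cholesterol in the lysosome, had 2398, 2804, 2272 and 2617 in WT and 2381, 2612, 2655 and 2516 in cKO (0.014, SE 0.084). Npc1, the membrane protein that takes cholesterol from NPC2, had 2036 ± 300 and 2016 ± 220 (SD, n = 4). Lrp8, a lipoprotein receptor that also receives reelin, had 3254 ± 113 and 3258 ± 529, a wider spread in cKO (2640 to 3781) than in WT (3125 to 3371) about nearly the same mean.

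Among the genes of storage, turnover and export, Cyp46a1 had the lowest p. It had 3294, 3887, 4156 and 3781 normalized reads in WT libraries and 3943, 4222, 4241 and 4807 in cKO. Each cKO library except replicate 1 exceeded every WT library (log2 fold change 0.19, SE 0.091, 95% interval of the fold change from 0.991 to 1.31, limma adjusted p = 0.592). General neuronal markers were measured beside it. Their summed level was 277904 to 321848 in WT and 302086 to 343852 in cKO, 4 of 5 had a positive log2 fold change, and Syt1 had 54426 ± 3512 and 63435 ± 4364 normalized reads (SD, n = 4; log2 difference 0.22). The least counted of the 5 averaged 8491 normalized reads, and their part in the Cyp46a1 value was not tested. In bulk tissue, fewer cells of a type and less RNA per cell cannot be told apart.

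Abcg1, an exporter induced by liver X receptors, had 1780, 2062, 2358 and 2071 normalized reads in WT libraries and 2090, 2304, 2193 and 2668 in cKO, with overlapping groups (log2 fold change 0.16, SE 0.11, limma adjusted p = 0.668). Abca1, induced by the same receptors, had 2038 ± 220 in WT and 2008 ± 437 in the cKO group (mean ± SD, n = 4), and the sign of its log2 fold change was negative (−0.038, SE 0.14). Soat1, which esterifies cholesterol for storage, had 1554 ± 143 and 1503 ± 94.5.

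Single libraries were high or low at many of the enzymes at once. Within cKO, replicate 2 was the lowest library at 13 of the 18 synthesis enzymes and 19 of the 31 members, where it was the lowest at 28.0% of all genes tested. Replicate 4 was the highest cKO library at 10 of the 18 enzymes and 19 of the 31 members, against 25.6% of all genes tested. Within WT, replicate 4 was the highest at 10 of the 18 enzymes and 14 of the 31 members, against 20.5%. The members share their libraries and size factors, so these counts describe single libraries and are not independent observations.

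The median log2 difference of the 18 enzymes from their WT mean was 0.027, −0.075, −0.075 and 0.14 in WT replicates 1 to 4 and 0.039, −0.15, 0.12 and 0.18 in cKO replicates 1 to 4. Over all genes tested, the same median stayed between −0.0038 and 0.013 in the 8 libraries. Summed over the 18 enzymes, normalized reads were 35618 to 42899 in WT and 33326 to 41154 in cKO. The lowest of the 8 sums was that of cKO replicate 2 and the highest that of WT replicate 4, and the groups overlapped between 35618 and 41154. Without cKO replicate 2 the median log2 fold change of the 31 members was 0.085, in place of 0.016.

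**Figure D3:**
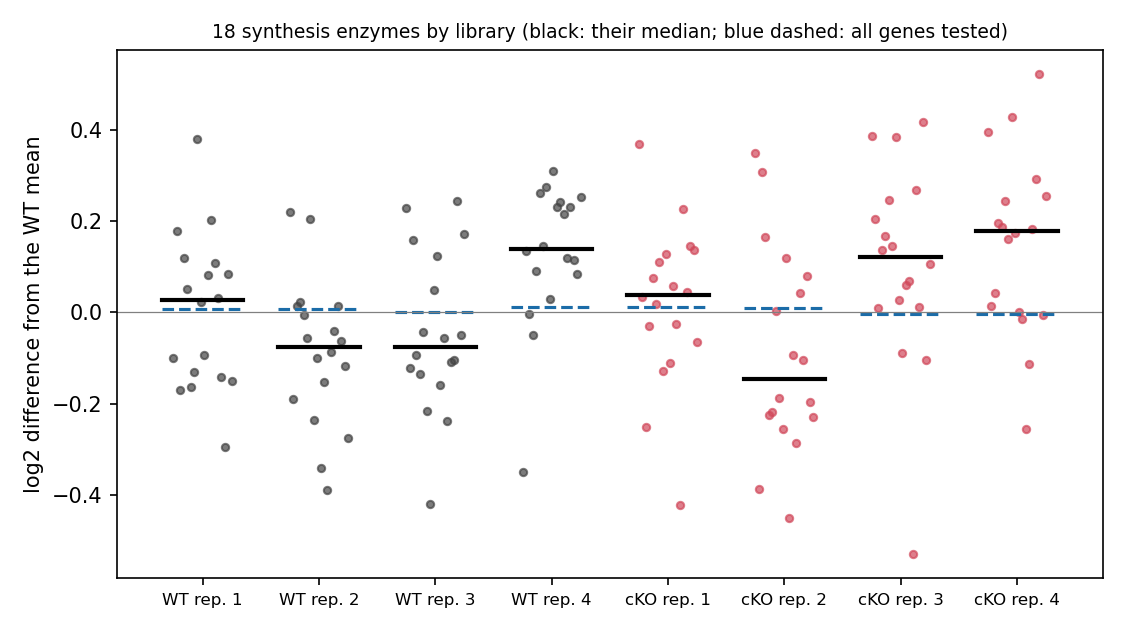
Log2 difference of each of the 18 synthesis enzymes from its WT mean (points, y axis) in each library (x axis), with the median of the enzymes (black) and of all genes tested (blue dashed). The enzyme median is lowest in cKO replicate 2, at −0.15, and highest in cKO replicate 4, at 0.18.

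Markers of oligodendrocytes, cells that need much cholesterol for myelin, were measured beside the cholesterol genes. All 15 had a negative log2 fold change, with a median of −0.27, although 0 of them passed limma over all genes. An unadjusted limma p under 0.05 was found for 3 of the 15 (20%, against 8.67% of all genes tested). Like the other lists, these markers were chosen with earlier results of these data known. The authors' deposited table gives 2 of the 15 an FDR under 0.05 (13.3%, against 0.657% of its genes), Aspa, an enzyme of oligodendrocytes that splits N-acetylaspartate, at 4.77e-05 and Ermn at 0.0384. Their summed level was 131124 to 191655 normalized reads in WT libraries and 107186 to 167863 in cKO, and the lowest marker still averaged 346. For the myelin gene Ermn the means were 3404 ± 456 in the WT group and 2179 ± 589 in the cKO group, and for Opalin they were 1371 ± 217 and 844 ± 295. Astrocyte markers had a median log2 fold change of 0.082, with 8 of 12 positive and a summed level of 185179 to 240233 in WT and 222123 to 233606 in cKO.

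With the mean oligodendrocyte marker level as a covariate in the limma fit, 0 of the 31 members had an adjusted p under 0.05, as without it. The median log2 fold change of the members was then 0.10. The covariate itself differed between the groups, with a mean log2 level of 11.95 in WT and 11.57 in cKO. Group and marker level therefore cannot be fully told apart in this fit. Srebf2 moved from 0.20 to 0.59 (SE 0.17, adjusted p = 0.263), Scap from 0.19 to 0.37 (SE 0.14, adjusted p = 0.313) and Ebp from 0.29 to 0.50 (SE 0.18, adjusted p = 0.304). Acat2 stayed at 0.37 (SE 0.17, adjusted p = 0.402) and Msmo1 was at −0.28 (SE 0.16, adjusted p = 0.484). Members at an unadjusted p under 0.05 were 5 in this fit (16.1%, against 13.1% of all genes tested in it), namely Ebp, Srebf2, Scap, Cyp46a1 and Abcg1.

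Neighbouring pathways gave the same count of calls. Of 16 genes of fatty acid synthesis, which share SREBP control, 0 passed limma over all genes or had an unadjusted p under 0.05, and 9 had a positive log2 fold change (median 0.032). Fasn, the fatty acid synthase gene, had 6241 ± 1192 normalized reads in WT libraries and 6883 ± 677 in the cKO group (mean ± SD, n = 4). Acly, which supplies cytosolic acetyl-CoA, had 5067 ± 745 and 5590 ± 517, and the phosphatidate phosphatase gene Lpin1 had a log2 fold change of −0.18 (SE 0.12). Of 13 genes of the isoprenoid branches, 0 passed and 1, the farnesyltransferase subunit gene Fntb, had an unadjusted p under 0.05 (785 ± 121 and 976 ± 95.7). The coenzyme Q side-chain genes Pdss1 and Pdss2 had log2 fold changes of −0.21 (SE 0.15) and 0.22 (SE 0.14).

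Among 43 further genes of sterol handling, 42 were tested and 0 passed limma over all genes, while 5 had an unadjusted p under 0.05, 2 higher and 3 lower in cKO, or 11.9% against the 8.67% of all genes. Groups did not overlap at 6 of the 42 (14.3%, against 4.92% of all genes tested). The authors' deposited table gives an FDR under 0.05 to 3 of the 43 (6.98%, against 0.657% of its genes). These 3 are among the 6 without overlap. The list was chosen with earlier results of these data known, and the 0.657% also covers genes that did not pass the filter on low values. Cyp27a1, a sterol hydroxylase gene, had 223, 173, 153 and 166 normalized reads in WT libraries and 57, 106, 121 and 95 in cKO, so that the highest cKO library was below the lowest WT library. Its cKO mean was 53.1% of the WT mean (log2 fold change −0.94 with an SE of 0.24, limma adjusted p = 0.482), and its FDR in the authors' deposited table is 0.0287.

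Vldlr, a receptor for lipoproteins and reelin like Lrp8, had 5794, 5828, 5879 and 5543 normalized reads in WT libraries and 5173, 5024, 5003 and 4924 in cKO. The cKO mean was 87.3% of the WT mean, and the groups did not overlap (log2 fold change −0.20 with an SE of 0.060, limma adjusted p = 0.496), and the FDR in the authors' deposited table is 0.0241. Pgrmc1, a heme-binding membrane protein that associates with sterol-modifying cytochromes, had 11741 ± 382 in WT and 13567 ± 617 in the cKO group (mean ± SD, n = 4; log2 difference 0.21, SE 0.062, limma adjusted p = 0.496). Its FDR in the authors' deposited table is 0.0468.

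**Figure D4:**
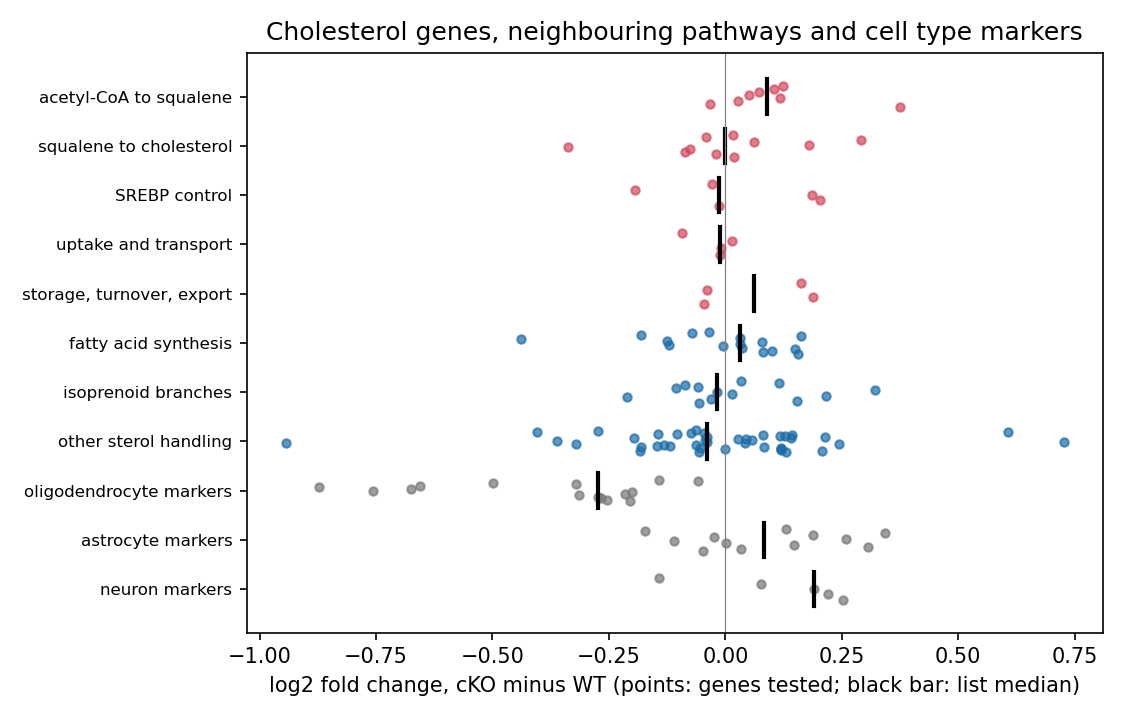
Log2 fold change, cKO minus WT (x axis), of each tested gene (points) in the 5 roles of the cholesterol genes (red), in 3 neighbouring pathways (blue) and in 3 marker lists (grey), with list medians as black bars. Medians of the 5 roles lie between −0.014 and 0.089, and that of the oligodendrocyte markers at −0.27.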

How the data were processed

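RNA was sequenced from hippocampal CA1 tissue with a stranded mRNA kit, per the labels. The submitters' processing notes name build mm9 and the tools DESeq2, STAR and StringTie, without versions, roles or annotation. The authors deposited 1 table with a log2 value per gene and library. These deposited log2 values are of reads over a size factor, plus 1: whole reads came back for 100% of them (tolerance 0.001), and their sums are the depths. The authors' own p-value, FDR and fold change stand in the same table.

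The 4 cKO libraries were compared with the 4 WT libraries with limma 3.58.1 (R 4.3.3), robust and with a mean-variance trend, on the log2 scale as deposited (pseudocount 1) and with no covariate, for the 26135 genes that reached a normalized 1 in 4 or more libraries. Adjusted p is Benjamini-Hochberg over these genes, with a threshold of 0.05. The fit was also run on simulated counts with known fold changes, whose spread was set in advance and not taken from these libraries. That run does not show how small a difference could be seen here. All members were named. Values in every library were given for those at an unadjusted p under 0.05 or without overlap and for the 2 lowest p of each role, and up to 3 genes of each other list were named by p. Members and lists were chosen with earlier results of these data known. Promoters are RefSeq's, on GRCm38.p6; no coordinates of the expression table were used. Replicate numbers are shared between groups; the fit without a block was the main one. Alternatives were quantile normalization, other filters and pseudocount, limma-voom on the recovered reads, array weights, a replicate block, covariates for oligodendrocyte and choroid plexus markers, and leaving out each library. Figures used matplotlib 3.10.9.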

Additional observations from a re-analysis of the deposited data

Results flagged for a closer look

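No library stood far from the other 3 of its group at any of the 31 members. At 6 of 128 sets of 4 libraries looked at, over the members and the named genes of other lists, 1 library stood far from the rest, where chance gives about 1 in 20. In cKO replicate 2, Fntb had 832 normalized reads (1017 to 1031 in the other cKO libraries), the astrocyte gene Aldh1l1 had 2631 (1769 to 1907) and the dentate granule gene Tdo2 had 831 (337 to 411). The astrocyte gene Sox9 had 1324 in WT replicate 1 (1520 to 1548 in the others) and 1357 in cKO replicate 3 (1289 to 1299). The CA1 gene Fibcd1 had 6350 in cKO replicate 1 (5176 to 5251).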

How the results depend on the processing

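Across 17 alternative settings 0 of the 31 members had an adjusted p under 0.05, and the lowest adjusted p was 0.263, that of Srebf2 with the oligodendrocyte covariate. Of the 31 members, 16 kept the sign of their log2 fold change in all 17 and 15 changed it in at least 1, none of them with an unadjusted p under 0.05 in the main comparison. Acat2 stayed between 0.26 and 0.45 and Msmo1 between −0.42 and −0.27. Members at an unadjusted p under 0.05 were 5 (16.1%) both with the replicate block, where 9.32% of all genes tested had such a p, and with the oligodendrocyte covariate, where 13.1% did. When 1 library was left out they were from 1 to 6 (3.23% to 19.4%), where the share of all genes ran from 6.33% to 11.3%. Over all genes, 5 were called in the main comparison, 8 with array weights, 2 with the replicate block, 3 with the oligodendrocyte covariate and from 4 to 7 when 1 library was left out. The median log2 fold change of the members ranged from −0.016 to 0.085 when 1 library was left out. Over all genes tested, libraries with the same replicate number did not deviate together (correlations from −0.04 to 0.029). Of the 4 WT libraries, 1 correlated best with its own number, so over all genes the numbers do not show a pairing. The median of the 18 synthesis enzymes was low in replicate 2 and highest in replicate 4 of both groups. It was −0.075 and 0.14 in WT, and −0.15 and 0.18 in cKO. With the replicate block, the 5 members at an unadjusted limma p under 0.05 were Acat2, Msmo1, Ebp, Srebf2 and Cyp46a1. The SE was smaller in that fit for some members, such as Srebf2 (0.081 in place of 0.19). It was larger for others, such as Insig2 (0.075 in place of 0.070). Beyond that fit, whether replicate numbers pair the libraries at the members alone was not tested. The least counted member averaged 430 normalized reads, and the effect of depth on the calls was not tested.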

Other observations

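Some genes of lipid metabolism outside the 31 varied far more between libraries than between groups, and were chosen after their values were seen. Scd2, a fatty acid desaturase gene, had 38533 normalized reads in WT replicate 2 and 9520 to 12536 in the other 7 libraries. Mid1ip1, a regulator of acetyl-CoA carboxylase, had 3126, 903, 1057 and 3601 in WT and 916, 2233, 1224 and 3516 in cKO. WT replicate 2 also had the highest summed level of 10 choroid plexus markers, 166575 against 5370 to 71713 in the other libraries, and the part of this in the Scd2 value was not tested.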
